A study of Mus musculus with 209 samples.

Results

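The subunits of the mitochondrial respiratory chain that are encoded in the nucleus were followed from the mouse egg to the 2-cell embryo and in the epiblast. Members were chosen by gene symbol alone: the Nduf subunits of complex I, Sdha to Sdhd of complex II, the Uqcr genes and Cyc1 of complex III, the electron carrier cytochrome c (Cycs), the Cox4 to Cox8 families of complex IV and the Atp5 genes of complex V, with pseudogene symbols ending in -ps left out. This gave 86 of 24450 gene rows: 37 of complex I, 4 of complex II, 9 of complex III, Cycs, 18 of complex IV and 17 of complex V. A few symbols fit the chosen pattern better than the complex. For example, Ndufa4 is now placed in complex IV, Atp5sl is now known as an assembly factor of complex I, and Cox7a2l links complexes into supercomplexes. Each was kept under its symbol. These examples are not a full list, and members such as Atp5s and Ndufa4l2 were also given their complex by symbol alone.

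Complex I takes electrons from NADH and complex II from succinate, complex III passes them to cytochrome c, complex IV hands them to oxygen, and complex V (ATP synthase) uses the resulting proton gradient to make ATP. Complex II is made only of nuclear-encoded proteins and is also an enzyme of the tricarboxylic acid cycle, whereas the other complexes also contain subunits encoded in mitochondrial DNA, which had no rows in the tables. The egg enters development with maternal mitochondria and maternal mRNA, and the mouse embryo starts large-scale transcription of its own genome at the 2-cell stage.

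Polyadenylated RNA was counted per gene in single oocytes at metaphase of the second meiotic division (MII; 14 WT and 19 KO libraries) and in 2-cell samples (8 WT and 9 KO libraries). Superovulated C57BL/6 females aged 6 to 8 weeks gave the oocytes 14 to 15 hours after hCG, and the 2-cell stage was reached 42 to 43 hours after it. The KO genotype is labelled N14 maternal KO. The labels do not spell out N14 or say how the deletion was made. They give C57BL/6 or PWK males for matings of the series but no father's strain for these samples, and they do not say whether a 2-cell library held a whole embryo or 1 blastomere. The epiblast samples were WT from a C57BL/6 mother and father: 2 labelled IVC and 2 from embryonic day 6.5 (E6.5), whose titles add ND, an abbreviation that is not explained. For the oocyte and 2-cell libraries no animal is named, so each group counted as 1 sample: ratios of counts pooled over libraries are given with exact 95% intervals that cover counting error only, and without p-values.

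Promoters are shown for members whose level or allele share is described in what follows. Sequences were taken from RefSeq (GRCm38.p6), where 70 of the 86 members matched 76 promoters. Each runs from 150 bases before the transcription start to 30 after it, on the gene's strand, and capitals mark matches to 4 motifs on either strand: CGCATGCG (NRF1), CCGGAAG (the ETS motif of GABPA), AAGATGGCG (YY1) and CACGTG (an E-box). Ndufs8, Ndufa11, Atp5j, Atp5g1 and Cox6b1 are shown as members at least 2-fold higher in WT 2-cell embryos than in oocytes, Cycs as the electron carrier, and Ndufa10 and Sdha as the members furthest below their oocyte level.
Ndufs8 (chr19:3912745-3912924, minus strand): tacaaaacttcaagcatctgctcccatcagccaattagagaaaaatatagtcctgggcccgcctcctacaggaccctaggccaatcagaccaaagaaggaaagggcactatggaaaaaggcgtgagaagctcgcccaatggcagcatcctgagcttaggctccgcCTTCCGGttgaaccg
Ndufa11 (chr17:56717612-56717791, plus strand): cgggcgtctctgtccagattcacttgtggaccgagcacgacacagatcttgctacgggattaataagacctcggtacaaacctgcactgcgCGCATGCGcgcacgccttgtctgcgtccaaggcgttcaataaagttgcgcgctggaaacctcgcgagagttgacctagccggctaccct
Atp5j (chr16:84834947-84835126, minus strand): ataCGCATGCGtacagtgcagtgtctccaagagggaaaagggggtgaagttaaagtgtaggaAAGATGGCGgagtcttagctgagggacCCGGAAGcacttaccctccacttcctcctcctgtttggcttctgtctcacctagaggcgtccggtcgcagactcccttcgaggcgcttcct
Atp5g1 (chr11:96075602-96075781, minus strand): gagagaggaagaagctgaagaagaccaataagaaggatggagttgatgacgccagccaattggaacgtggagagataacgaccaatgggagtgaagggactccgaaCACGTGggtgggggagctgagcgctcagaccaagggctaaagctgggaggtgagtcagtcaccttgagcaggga
Cox6b1 (chr7:30626085-30626264, minus strand): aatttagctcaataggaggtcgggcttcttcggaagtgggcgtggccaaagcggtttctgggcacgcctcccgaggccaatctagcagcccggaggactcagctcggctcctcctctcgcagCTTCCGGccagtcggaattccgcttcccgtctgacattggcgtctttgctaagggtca
Cycs (chr6:50566540-50566719, minus strand): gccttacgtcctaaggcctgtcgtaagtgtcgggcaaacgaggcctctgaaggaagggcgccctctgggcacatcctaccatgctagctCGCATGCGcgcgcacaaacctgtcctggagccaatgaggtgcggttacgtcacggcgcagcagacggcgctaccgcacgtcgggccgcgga
Ndufa10 (chr1:92473729-92473908, minus strand): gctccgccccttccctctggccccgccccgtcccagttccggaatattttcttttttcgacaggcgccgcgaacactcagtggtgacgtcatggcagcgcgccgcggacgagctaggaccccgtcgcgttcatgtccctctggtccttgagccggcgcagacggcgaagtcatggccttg
Sdha (chr13:74350211-74350390, minus strand): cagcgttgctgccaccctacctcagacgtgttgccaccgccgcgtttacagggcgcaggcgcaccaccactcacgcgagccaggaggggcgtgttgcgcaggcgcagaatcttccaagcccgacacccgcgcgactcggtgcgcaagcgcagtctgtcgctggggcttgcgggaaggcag

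In this window Atp5j held an NRF1, a YY1 and an ETS match, Ndufa11 and Cycs an NRF1 match, Ndufs8 and Cox6b1 an ETS match, Atp5g1 an E-box, and Ndufa10 and Sdha none of the 4. Motifs were counted on both strands in RefSeq windows of 300 bases, 250 before the start and 50 after it. The NRF1 motif was found in 10 of the 76 member promoters (13.2%) and in 1.87% of all 32851 promoters. The ETS motif was in 16 (21.1%, all promoters 8.86%), the YY1 motif in 9 (11.8%, all promoters 1.4%) and the E-box in 9 (11.8%, all promoters 7.15%). Some members have several promoters. Counted by gene, the E-box was in 7 of 70 members (10%) and in 8.09% of all genes. The ERR motif AAGGTCA was in 8 (10.5%, all promoters 4.72%) and the TATA motif TATAAA in 8 (10.5%, all promoters 13.6%). Of 36 promoters (31 genes) of members at least 2-fold higher at the WT 2-cell stage, 4 held the NRF1, 5 the ETS and 3 the YY1 motif, and 6 an E-box. Of 23 promoters (22 genes) of members within 2-fold, the numbers were 3, 9, 5 and 3. The 5 promoters of lower members held 0 of each. The promoters printed above are picked examples and do not show these shares. A match describes the letters of the window and is not evidence of binding.

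The oocyte libraries fell into sets. One had ERCC spike-in RNA above 0.01% of counts (10 WT and 7 KO), another had less and little 45S ribosomal RNA (Rn45s under 1%; 3 WT and 10 KO), and 3 libraries belonged to neither. The sets are called spike-in and low-rRNA oocytes and were compared within themselves. All 17 of the 2-cell libraries held spike-ins and were set against spike-in oocytes. Gene counts per library ranged from 3933604 to 13052327 in the oocytes of these sets and from 2704050 to 15007301 at the 2-cell stage. Nlrp14, a candidate for N14 by its symbol, had 225 to 600 CPM (counts scaled to the library total) in WT spike-in oocytes and 29.5 to 63.6 in KO ones, 637 to 652 in WT low-rRNA oocytes and 0.643 to 42.4 in KO ones, and 106 to 477 in WT and 29.4 to 86.4 in KO 2-cell libraries. The libraries did not overlap between genotypes, but the deleted stretch is not given. A pair of 2-cell libraries stood apart from their groups. WT library 8 had the lowest Nlrp14 level of the WT 2-cell libraries, the lowest summed level of the members (3255 CPM, the others 4262 to 6815), the lowest paternal share of all genes (4.00%, the others 9.03% to 24.7%) and the highest summed level of 10 oocyte markers (9901 CPM, the others 3708 to 8530). KO library 4 had the highest gene count, the highest summed level of the members (4608 CPM, the others 2660 to 3415) and of the oocyte markers (17876 CPM, the others 5339 to 13155), and the lowest of 8 2-cell markers (217 CPM, the others 226 to 2352). The main counts and medians of the members that rest on these libraries are given with and without them. Other results are given with all libraries only, among them paternal shares by complex, allele levels, related lists and most single genes. The members' own sums were among the values that set them apart, so leaving them out tends to widen the members' differences. The outlier check reported further below marked WT library 8 for complex II only.

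In MII oocytes the respiratory chain genes were present from every complex. Of the 86 members, 41 reached 10 CPM in the WT spike-in pool and 28 in the WT low-rRNA pool, against 71 in the WT 2-cell pool. Only Cox8b was without a count in every oocyte and 2-cell library, and 14 members stayed under 10 CPM in every pool, among them the tissue-restricted isoforms Cox6a2, Cox7a1, Cox7b2, Cox8b and Cox8c and the complex I subunits Ndufb7, Ndufc2 and Ndufs7. The summed level of all members in WT spike-in oocytes was 3053 CPM in the lowest library, 3985 in the median and 4743 in the highest. In WT low-rRNA oocytes the 3 libraries lay between 1626 and 2029 CPM. The sets therefore did not overlap in this sum. Complex IV held 1609 CPM in the WT spike-in pool and 347 in the WT low-rRNA pool, whereas complex III held 223 and 319. The median log2 ratio of low-rRNA over spike-in oocytes was −1.30 over the members and −0.17 over all genes in WT, and −1.57 and −0.27 in KO. The labels do not name the sets, so levels are read within each of them.

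**Figure D1:**
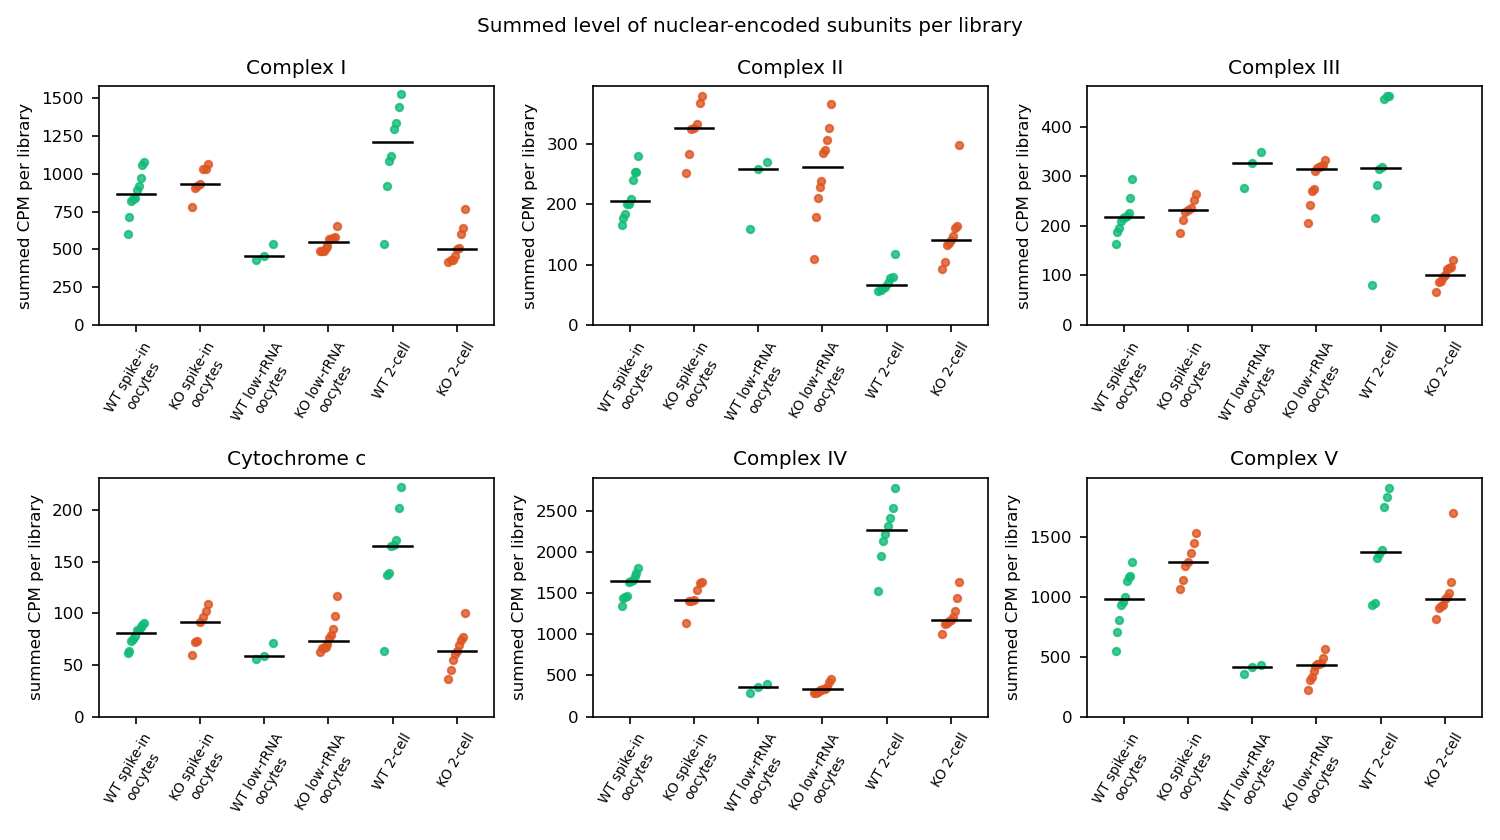
Summed CPM of the members of each complex (vertical axes, starting at 0) in every library, with 1 point per library and a bar at the median of each group. Complexes I, III, IV and V and cytochrome c were lower in most KO 2-cell libraries than in WT ones, complex II was lower in WT than in KO 2-cell libraries except for KO libraries below WT library 8, and complex IV was low in both low-rRNA sets.

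In oocytes, few members differed between KO and WT. Of 45 members that reached 10 CPM in either spike-in pool, 2 were at least 2-fold higher in KO and 0 were lower. Among all 6375 genes measured in this way, 9.41% were higher and 3.69% lower. The members' median log2 ratio was 0.18, beside 0.07 over all genes. Of 41 members at 10 CPM in both pools, 1 was called. Every KO library was above every WT library for 2 members and below for 0, beside 7.07% and 2.90% of all genes. The 2 called members both belong to ATP synthase: Atp5e, its epsilon subunit, and Atp5g3, which encodes the ring-forming subunit c. Atp5e lay between 16.2 and 28.6 CPM in the WT libraries (median 23.3) and between 33.3 and 70.2 in the KO libraries (median 50.3). Every KO library was above every WT library, and the log2 ratio was 1.04 (interval 0.95 to 1.13), though without KO oocyte 14 it was 0.91 and without WT oocyte 12 it was 0.97, both under the 2-fold limit. Atp5g3 was at 4.04 CPM in the WT pool and 10.9 in the KO pool (log2 ratio 1.43, interval 1.22 to 1.65), with overlapping libraries.

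Other members stood just inside the limit. Sdha, the flavoprotein that oxidises succinate, lay between 126 and 193 CPM in WT spike-in oocytes and between 215 and 314 in KO ones. The libraries did not overlap, and the log2 ratio was 0.81. Atp5a1, the alpha subunit of ATP synthase, was at 211 CPM in WT and 398 in KO (0.91), and Ndufs6, a zinc-binding subunit of complex I, at 13.1 and 25.3 (0.95). In the other direction, Ndufb5 of complex I was at 59.5 CPM in WT and 38.1 in KO (−0.64) and Cox7a2l at 119 and 87.4 (−0.44). Scaled to ERCC counts rather than to gene counts, the median log2 ratio of all genes moved from 0.07 to 0.57 and that of the members from 0.18 to 0.68, with 9 members at least 2-fold higher and 0 lower. Of all 6375 genes, 1603 were then higher and 57 lower. The amount of spike-in per oocyte is not given, so neither scale is read as RNA per cell.

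In low-rRNA oocytes, 3 of 32 members were at least 2-fold higher in KO and 0 lower, beside 1.98% and 2.03% of 5957 genes. These were other genes, all of complex I, and none of the 3 reached 10 CPM in the WT pool. Of 27 members at 10 CPM in both pools, 0 were called. Ndufb11, an X-linked subunit, was at 7.17, 7.51 and 10.0 CPM in the 3 WT libraries and between 10.6 and 25.2 in the 10 KO libraries (log2 ratio 1.14, interval 0.95 to 1.33). Ndufa13 and Ndufa8 had log2 ratios of 1.24 and 1.33, which became 0.95 without WT oocyte 3 and 0.89 without WT oocyte 1. Sdha, which differed in the spike-in set, was at 157 CPM in WT and 191 in KO here (0.28), and Ndufa10 at 256 and 267 (0.06). Every KO library was above every WT library for 1 member, Ndufb11, and below for 0, beside 0.537% and 1.02% of all genes. No member was called in both sets. Cumulus and granulosa markers summed to 44.3 to 64.8 CPM in WT and 46.2 to 85.6 CPM in KO spike-in oocytes and to 58.9 to 67.2 and 66.2 to 187 CPM in the low-rRNA sets, and their part in these ratios was not tested.

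Between the WT oocyte and the WT 2-cell embryo, the pooled level was higher for most complexes, relative to all RNA counted, and lower for complex II. Of 71 members measured (10 CPM in at least 1 pool), 38 were at least 2-fold higher at the 2-cell stage and 6 lower. Over all 8478 genes measured, 42.1% were higher and 12.8% lower. Every 2-cell library lay above every oocyte library for 25 members and below for 5, beside 23.7% and 8.29% of all genes. The members' median log2 ratio was 1.2, that of all genes 0.69, and the summed level went from 4018 to 5089 CPM. Because many members reached 10 CPM only at the 2-cell stage, the 41 that did so in both pools are the stricter view, and their median was 0.33. With ERCC counts as the library size the median of all genes moved from 0.69 to −0.43 and that of the members from 1.2 to 0.08, with 27 members higher and 20 lower, so directions here are relative to all RNA counted. Of all 8478 genes, 2162 were higher and 2990 lower on that scale.

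The rank of the complexes by median log2 ratio was III, I, V, IV, cytochrome c and II. It includes members that reached 10 CPM only at the 2-cell stage, among them Cyc1, Uqcrc1 and Uqcrb of complex III. The filter favours high ratios for such members, and the rank was not separated from it. Complex III had 6 of 8 measured members higher and 1 lower (median 1.74), complex I 16 of 29 higher and 3 lower (1.51), complex V 9 of 16 higher and 0 lower (1.12), and complex IV 7 of 13 higher and 1 lower (1.03). Complex II had 0 of 4 higher and 1 lower (−0.43). With ERCC scaling these medians became 0.62, 0.39, −0.00, −0.09 and −1.55, so the sign for complexes IV and V depended on the scale. Without WT library 8 the members' median was 1.49 and that of all genes 0.73, with 42 members higher and 6 lower. Every 2-cell library was then above every oocyte library for 39 members and below for 5 (33.4% and 10.3% of all genes). Cytochrome c, at 1.14, then ranked above complex IV. The medians by complex were 2.27 for complex III, 1.75 for complex I, 1.22 for complex V, 0.98 for complex IV and −0.55 for complex II.

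**Figure D2:**
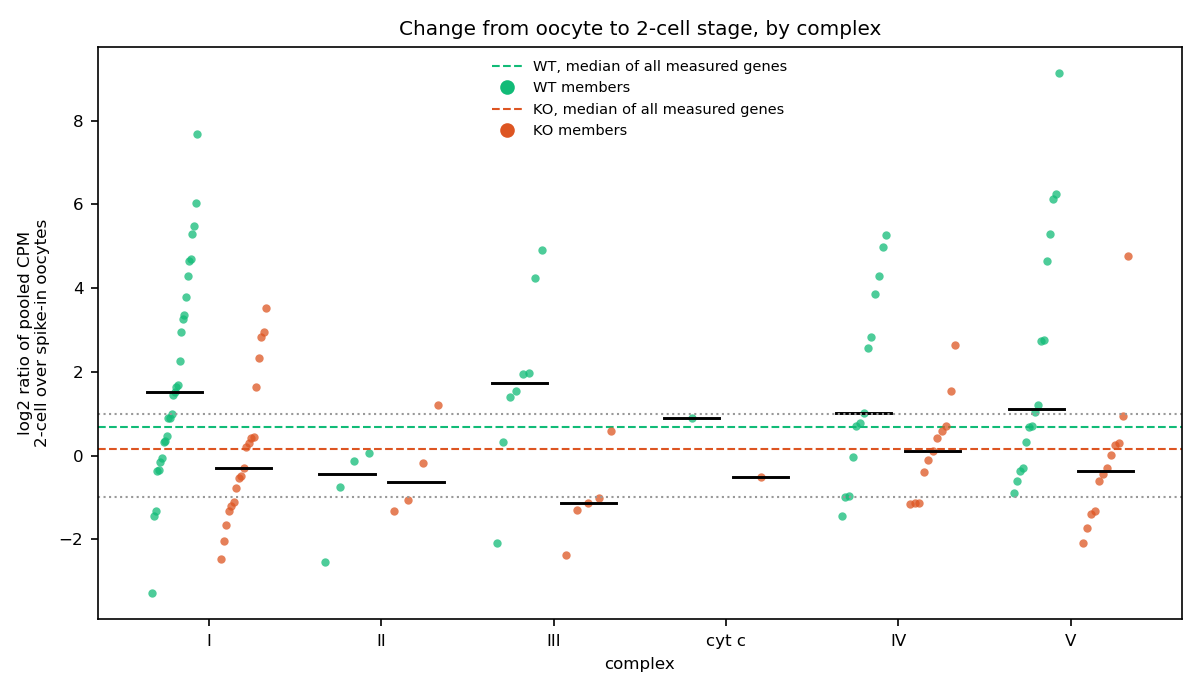
Log2 ratio of pooled CPM, 2-cell over spike-in oocytes (vertical axis), of each measured member by complex (horizontal axis), for WT and KO, with a solid bar at each complex's median, dotted lines at 2-fold and dashed lines at the median of all measured genes (0.69 in WT, 0.15 in KO). WT members of complexes I and V reach log2 ratios above 7, KO medians lie lower in every complex, and Sdha, Ndufa10 and Uqcrc2 are the lowest of their complexes in both.

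The largest WT ratios belonged to members that were almost absent from the egg. Ndufs8, an iron-sulphur subunit at the core of complex I whose promoter is shown above, had a median of 0 and a highest value of 1.4 CPM in WT spike-in oocytes and lay between 24.8 and 97.8 CPM in the WT 2-cell libraries (median 56.4). The log2 ratio was 7.68 (interval 7.0 to 8.46), and 9.0 without WT oocyte 7. Atp5s went from 0.0308 to 17.4 CPM (9.14, interval 7.28 to 12.19), with only 2 counts in the WT spike-in oocyte pool. Both had 2-cell libraries entirely above the oocyte libraries.

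Atp5g1 is another gene for subunit c. Its WT spike-in oocytes lay between 0.771 and 5.99 CPM (median 2.0) and its WT 2-cell libraries between 62.2 and 383 CPM (median 259). The log2 ratio was 6.26 (interval 6.05 to 6.47). Its paralog Atp5g3 encodes the same mature protein and went from 4.04 to 27.6 CPM (2.77) in the same comparison. Reads of such near-identical genes, and of the processed pseudogenes that many members have, could be split between copies, and how shared reads were counted is not given in the sources used here.

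Isoforms of complex IV had unequal ratios. Cox4i1, the common form of subunit 4, went from a WT oocyte median of 9.77 CPM (4.6 to 18) to a 2-cell median of 168 (35.3 to 252), a log2 ratio of 3.85, while its lung and hypoxia-associated paralog Cox4i2 went from 0.262 to 10.2 CPM (5.28). The 2-cell libraries of both were above all oocytes. Cox6b1, the common form of subunit 6b, went from 11.51 to 82.4 CPM (2.84). Cox6b2, its testis form, was already at 131 CPM in the egg and reached 267 (1.03), which became −0.09 with ERCC scaling and lay between 0.963 and 0.997 without any 1 of WT 2-cell libraries 3, 6 and 8 or WT oocytes 6, 9 and 10. Cox7b on the X chromosome went from 7.30 to 144 CPM (4.30), Cox7c from 1.00 to 31.6 (4.98) and Cox6a1 from 15.0 to 89.4 (2.57). Cox5a and Cox5b, which are present in all tissues, were at 502 and 161 CPM in oocytes and at 256 and 81.4 in 2-cell embryos (−0.97 and −0.98).

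In complex III the highest ratios were those of the catalytic Cyc1 (1.08 to 32.6 CPM, log2 ratio 4.92) and the core protein Uqcrc1 (0.770 to 14.7 CPM, 4.25), which became 5.91 and 5.01 without WT oocyte 7. Among the small subunits, Uqcr10 went from 17.6 to 51.0 CPM (1.53) and Uqcrb from 9.41 to 24.8 (1.4). Uqcrc2, the other core protein, went from 121 CPM (83.1 to 143 in single libraries) to 28.5 CPM (7.96 to 62.7), with no overlap and a log2 ratio of −2.08 (interval −2.17 to −2.0). The ratios of the core proteins of complex III thus had opposite signs. Cycs lay between 61.3 and 91.0 CPM in the egg and between 63.3 and 223 CPM in 2-cell libraries, a log2 ratio of 0.90 that missed the 2-fold limit and was 1.14 without WT library 8.

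The members that were lower at the WT 2-cell stage came from 4 of the complexes. Ndufa10, an accessory subunit of complex I, lay between 239 and 368 CPM in oocytes and between 12.9 and 74.5 in 2-cell libraries (log2 ratio −3.28, interval −3.36 to −3.21). Sdha lay between 126 and 193 CPM in oocytes and between 6.07 and 50.8 in 2-cell libraries (−2.54, interval −2.63 to −2.46), while the other complex II members Sdhb, Sdhc and Sdhd had log2 ratios of 0.05, −0.12 and −0.75. Cox7a2l went from 119 to 43.3 CPM (−1.45), Ndufb5 from 59.5 to 22 (−1.43) and Ndufa6 from 35.0 to 14.0 (−1.32). Libraries of Ndufa10, Sdha, Uqcrc2 and Cox7a2l did not overlap between the stages.

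Other genes of mitochondrial respiration were read beside the members in the same comparison. Of 32 measured assembly factors, 18 were at least 2-fold higher and 0 lower (median 1.54), such as Uqcc3, which helps build complex III (0.308 to 31.8 CPM), and Timmdc1 of complex I assembly (2.45 to 64.8 CPM). Of 12 transcriptional regulators of respiratory genes, 7 were higher and 1 lower (median 1.56). Gabpa, the ETS factor, went from 0.955 to 406 CPM and Yy1 from 0.662 to 58.5 CPM, whereas Nrf1 was at 35.2 and 45.2 CPM. Of 11 genes for mitochondrial DNA upkeep and transcription, 6 were higher, such as the single-strand binding protein Ssbp1 (13.6 to 115 CPM), and 2 lower, such as the ribosomal RNA methyltransferase Tfb1m (148 to 15.1 CPM). Of 17 genes of the tricarboxylic acid cycle, 4 were higher and 4 lower (median 0.41), with Mdh2 going from 1.94 to 168 CPM. Cytosolic ribosomal protein genes had 71 of 79 higher (median 3.91) and mitochondrial ribosomal protein genes 25 of 62 higher and 9 lower (median 0.55).

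The same stages were compared in KO. Of 52 measured members, 9 were at least 2-fold higher in KO 2-cell libraries than in KO spike-in oocytes and 19 lower, beside 19.5% and 16.3% of 7153 genes. Every 2-cell library lay above every oocyte library for 6 members and below for 12 (10.9% and 12.4% of all genes). The members' median log2 ratio was −0.35 and that of all genes 0.15, and the summed level went from 4421 to 3378 CPM. The median depended on the filter: it was 0.30 over members with any count. With ERCC counts as the library size it was −1.14 (all genes −0.64), with 6 members higher and 28 lower. Of all 7153 genes, 658 were then higher and 2635 lower. Without KO library 4 the median was −0.64 (all genes 0.17), with 7 higher and 17 lower, and without overlap 6 above and 14 below (12.3% and 13.6% of all genes). This comparison and the WT one share no library, but the difference between them was not tested, since each group counts as 1 sample.

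The higher members included Atp5g1, Ndufs8, Ndufv3, Cox7b, Ndufa2, Ndufb3, Cox6b1 and Sdhc. Atp5g1 went from 1.75 CPM (0.479 to 3.05) to 47.7 CPM (23.8 to 102), a log2 ratio of 4.77 where WT had 6.26. Ndufs8 went from 1.26 to 14.5 CPM (3.52, WT 7.68), and Ndufv3, a small subunit of the NADH-binding arm, from 1.90 to 13.6 (2.84, WT 4.28). Sdhc, a membrane anchor of complex II, was at 21.3 CPM in KO oocytes and 49.5 in KO 2-cell libraries (1.21), which became 0.86 without KO library 4.

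By complex, complex III had 0 of 5 measured members higher and 4 lower in KO (median −1.13), complex II 1 higher and 2 lower of 4 (−0.62), complex V 1 and 4 of 12 (−0.37), complex I 5 and 6 of 19 (−0.30) and complex IV 2 and 3 of 11 (0.11, and −0.68 with ERCC scaling). Ndufa10 (−2.47), Uqcrc2 (−2.37) and Sdha (−1.32) were lower, as in WT embryos. Atp5j2, subunit f of ATP synthase, lay between 44.3 and 64.5 CPM in KO oocytes and between 10.6 and 18.1 in KO 2-cell libraries (−2.09), where WT had −0.29. Ndufs6 went from 25.3 to 6.17 CPM (−2.03, WT −0.15) and Atp5e from 50.1 to 15.2 CPM (−1.72, WT 0.33). Atp5a1 went from 398 to 158 CPM (−1.33), and Atp5b, the catalytic beta subunit, stayed at 535 and 537 CPM (0.01).

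Oocyte markers summed to 6452 CPM in the KO spike-in pool and to 12140 in the KO 2-cell pool, and to 5704 and 6673 in WT. The 2-cell markers summed to 5.61 and 791 CPM in KO and to 8.09 and 1258 in WT. The part of these marker differences in the stage ratios was not tested.

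Direct comparison of the 2-cell groups placed most members lower in KO. Of 71 measured members, 40 were at least 2-fold lower in KO and 1, Sdha, at least 2-fold higher. Over all 8416 genes, 31.6% were lower and 5.96% higher. The summed level was 5089 CPM in the WT pool and 3378 in the KO pool, with library values of 3255 to 6815 (median 5424) in WT and 2660 to 4608 (median 3014) in KO, which overlap through WT library 8 and KO library 4. The members' median log2 ratio was −1.09 and that of all genes −0.35. Members at 10 CPM in both pools, 45 in number, had a median of −0.73. Libraries of the genotypes did not overlap for only 1 lower member, Ndufv2, and 1 higher, Sdha, beside 1.37% and 0.333% of all genes.

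Most of that overlap was absent without WT library 8. Without it, every KO library was below every WT library for 32 members (13.4% of all genes) and above for Sdha (3.53%), with 46 members at least 2-fold lower, 2 higher and a median of −1.33 (all genes −0.46). Without KO library 4 alone, 3 members (Cox6c, Cox8a and Ndufv2) were lower without overlap and the median was −1.30. Without both, 35 members were lower and 1 higher without overlap (14.0% and 3.80% of all genes), 49 were at least 2-fold lower and the median was −1.55 (all genes −0.44). Both libraries were set apart partly by the members' sums, so the wider gap without them follows in part from that choice.

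The scale also mattered. With ERCC counts as the library size the median of all genes moved from −0.35 to 0.47 and that of the members from −1.09 to −0.27, with 24 members at least 2-fold lower and 6 higher. Of all 8416 genes, 1454 were then lower and 2493 higher. This scale moves every gene alike, and the median of complex IV changed sign, from −0.73 to 0.09. ERCC took 0.108% of counts in WT and 0.0622% in KO 2-cell libraries on average.

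**Figure D3:**
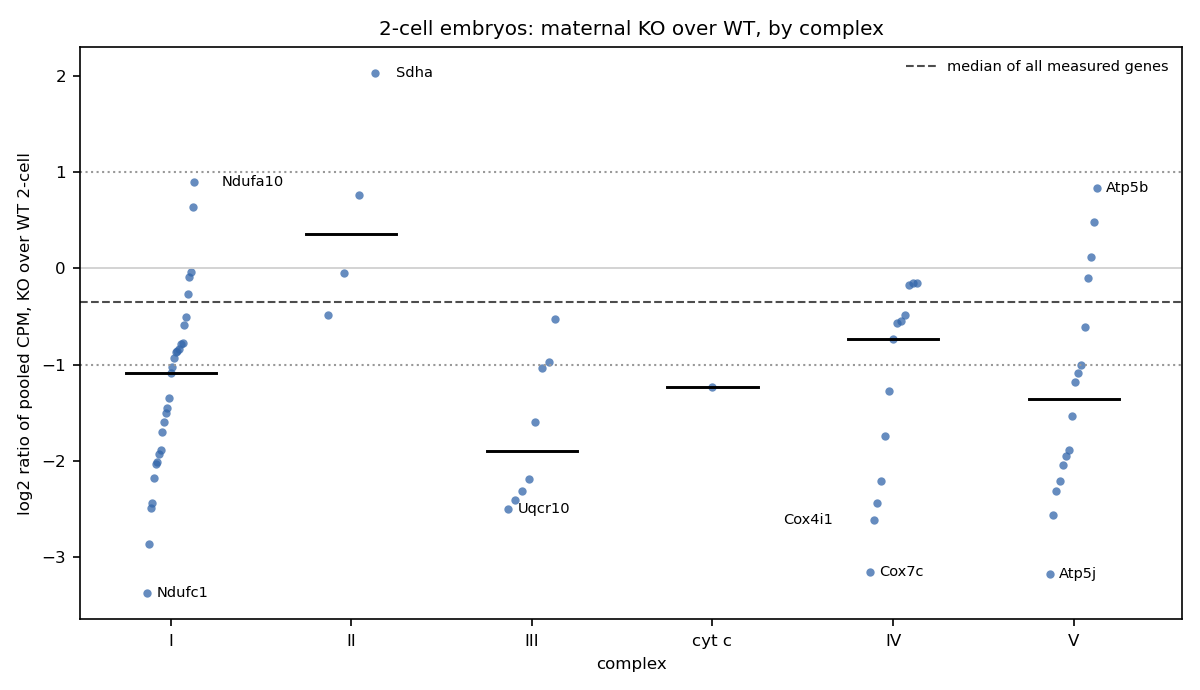
Log2 ratio of pooled CPM, KO over WT 2-cell libraries (vertical axis), of the 71 measured members by complex (horizontal axis), with a solid bar at each complex's median, dotted lines at 2-fold and a dashed line at the median of all measured genes (−0.35). Sdha stands alone above the upper 2-fold line, and complexes III and V have the lowest medians among the multi-subunit complexes.

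By complex, the median log2 ratio was −1.90 for complex III (6 of 8 members at least 2-fold lower), −1.36 for complex V (11 of 16), −1.09 for complex I (16 of 29), −0.73 for complex IV (6 of 13) and 0.36 for complex II (0 lower and 1 higher of 4). Without either library that stood apart these were −2.34, −1.84, −1.53, −1.13 and 0.12. Many of these members reached 10 CPM only in the WT pool, so the filter favours low ratios. In complex III, those at 10 CPM in both pools were Uqcrc2, Uqcrh and Uqcrfs1, with log2 ratios of −0.52, −0.97 and −1.03. The order of the complexes was not separated from this filter. Complex III summed to 290 CPM in the WT pool and 107 in KO, complex I to 1075 and 568.1, complex IV to 2142 and 1320, complex V to 1358 and 1142, and complex II to 78.8 and 180.

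In complex I the lowest ratio was that of Ndufc1, a small membrane-arm subunit, with a WT median of 27.1 CPM (1.94 to 48.8) and a KO median of 1.80 (0.363 to 15.5). WT libraries 4 and 8 lay below the highest KO library, and the log2 ratio was −3.37 (interval −3.64 to −3.12). Ndufa11, which sits where the membrane arm bends, had a WT median of 57.6 CPM (12.9 to 77.8) and a KO median of 6.53 (1.92 to 13.9), a log2 ratio of −2.86. Ndufv2, a core subunit of the NADH-binding module, lay between 22.3 and 85.1 CPM in WT and between 8.31 and 20.7 in KO (−1.70, interval −1.81 to −1.59). At the other end, Ndufa10 and Ndufa6, which were lower at the WT 2-cell stage than in the egg, were higher in KO than in WT at the 2-cell stage, though within 2-fold: 62.4 against 33.6 CPM (0.90) and 21.8 against 14.0 CPM (0.64).

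Sdha showed the opposite sign from most of the chain. It lay between 6.07 and 50.8 CPM in WT 2-cell libraries (median 22) and between 60.1 and 188 in KO ones (median 94.7), with no overlap. The log2 ratio was 2.03 (interval 1.94 to 2.12), 2.49 without WT library 8 and 1.67 without KO library 4. Sdhb (−0.05), Sdhc (0.76) and Sdhd (−0.48) were within 2-fold. Sdhc became 1.12 without WT library 8 and 0.41 without KO library 4.

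In complex III, Uqcr10 lay between 13.6 and 92.2 CPM in WT and between 2.54 and 18.3 in KO (log2 ratio −2.50), Uqcrb was at 24.8 and 4.67 CPM (−2.41), Uqcrc1 at 14.7 and 2.95 (−2.31) and Cyc1 at 32.6 and 7.12 (−2.19). The Rieske iron-sulphur protein Uqcrfs1 was at 35.1 and 17.2 CPM (−1.03), and Uqcrc2, already low in WT, at 28.5 and 19.8 CPM (−0.52). Cycs had a WT median of 166 CPM (63.3 to 223) and a KO median of 63.5 (36.1 to 100), a log2 ratio of −1.23 (interval −1.29 to −1.17).

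In complex IV the difference was again uneven among isoforms. Cox4i1 lay between 35.3 and 252 CPM in WT (median 168) and between 15.0 and 40.3 in KO (median 21.5), overlapping only through WT library 8, with a log2 ratio of −2.62 (interval −2.70 to −2.53). Cox7c was at 31.6 and 3.54 CPM (−3.16), Cox4i2 at 10.2 and 1.88 (−2.44), Cox7b at 144 and 31.0 (−2.21), Cox6a1 at 89.4 and 26.7 (−1.74) and Cox6b1 at 82.4 and 33.9 (−1.28). The other 7 were within 2-fold: Cox5a (−0.17), Cox5b (−0.15), Cox7a2l (−0.15), Cox8a (−0.48), Cox6b2 (−0.55), Cox6c (−0.57) and Cox7a2 (−0.73).

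In complex V the lowest ratio was that of Atp5j, coupling factor 6, with a WT median of 46.6 CPM (8.54 to 84.5) and a KO median of 3.88 (0.427 to 29.2), a log2 ratio of −3.18 (interval −3.36 to −3.00). The delta subunit Atp5d was at 18.2 and 3.08 CPM (−2.57), Atp5g1 at 221 and 47.7 (−2.21) and Atp5g3 at 27.6 and 7.12 (−1.95). The alpha and beta subunits were higher in KO within 2-fold, Atp5a1 at 113 and 158 CPM (0.48) and Atp5b at 301 and 537 (0.84, and 0.44 without KO library 4).

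Several related lists also had most of their genes lower in KO 2-cell embryos. Assembly factors had 20 of 32 measured genes at least 2-fold lower and 0 higher (median −1.13), with Uqcc3 at 31.8 CPM in WT and 0.962 in KO. Genes of mitochondrial DNA upkeep and transcription had 7 of 11 lower (median −1.22), including Tfam, which packages mitochondrial DNA (46.5 and 6.82 CPM). Regulators had 6 of 11 lower and 0 higher (median −1.09): Gabpa was at 406 and 40.4 CPM and Yy1 at 58.5 and 5.15, while Nrf1 was at 45.2 and 51.5. Genes of the tricarboxylic acid cycle had 4 of 16 lower and 0 higher, while their median lay on the other side of zero, at 0.49. Cytosolic ribosomal proteins had 71 of 79 lower (median −2.24) and mitochondrial ones 27 of 61 lower and 4 higher (median −0.83). Oocyte markers had 3 of 9 higher and 2-cell markers 3 of 8 lower in KO. The part of these marker differences in the members' ratios was not tested.

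Allele counts separated transcripts of the father's genome, which the egg cannot have supplied. The deposited allele tables assigned 37.0% of WT and 39.5% of KO 2-cell counts to a parent. In the oocyte columns, all counts were placed on the maternal side and the paternal side was 0. In WT embryos the paternal share was measurable for 69 members (50 or more allele counts) with a median of 31.8%, beside 21.6% over 10869 genes, and 41 members were at 25% or above, beside 46.05% of all genes. In KO embryos the median was 8.28% over 65 members, beside 3.34% over 10154 genes, and 19 members were at 25% or above, beside 16.52% of all genes. Over the 65 members measured in both, the KO share was lower for 58 (beside 7769 of 9419 genes), and the median difference of KO minus WT was −15.1 points, beside −8.50 over these genes. Without WT library 8 the WT median was 33.3% (all genes 26.1%), and without KO library 4 the KO median was 11.8% (all genes 3.37%).

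**Figure D4:**
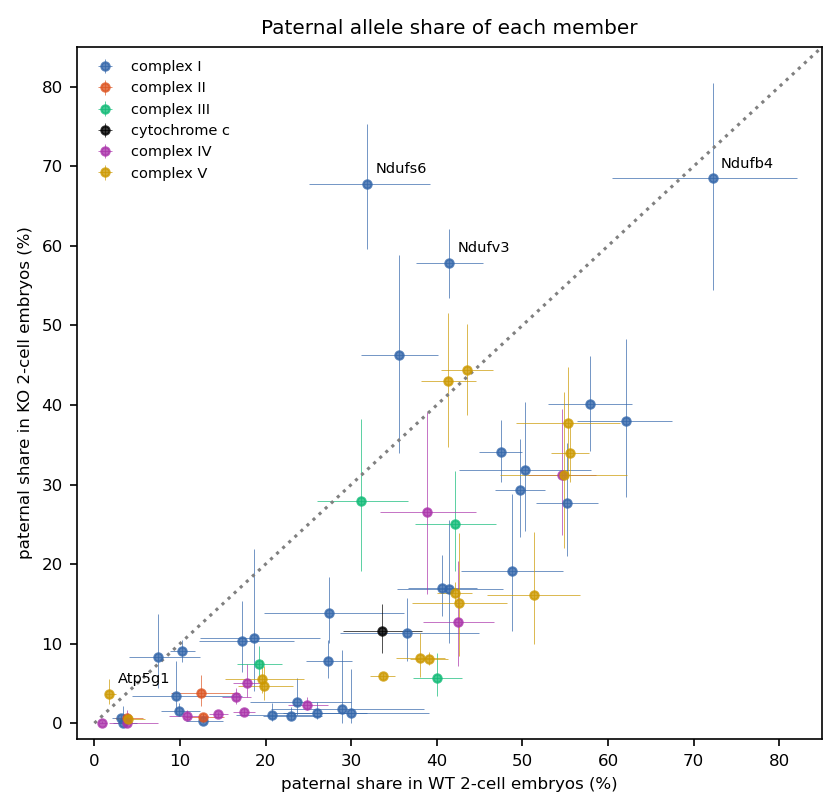
Paternal share of allele counts in KO 2-cell embryos (vertical axis, percent) against WT (horizontal axis, percent) for the 65 members measured in both, coloured by complex, with exact 95% counting intervals and a dotted line of equality. Most members lie below the line, and Ndufs6 and Ndufv3 lie above it.

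Among the complexes, the WT median paternal share was 41.3% for complex V, 36.4% for complex III, 29.5% for complex I and 17.7% for complex IV, and in complex II the 3 members measured lay between 3.84% and 12.7%. In KO the medians were 15.1%, 16.2%, 10.7% and 2.33%, with 0.766% for complex II, and Cycs had 33.6% in WT and 11.6% in KO. Members with a WT stage increase of 2-fold or more had a median share of 41.8% (34 members), those within 2-fold 21.9% (24) and those with a decrease 7.43% (5). Over the 69 members the Spearman correlation of share with stage ratio was 0.60. It is a description, since the points come from the same libraries and share and ratio both draw on the 2-cell counts.

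The highest WT share was that of Ndufb4, with 52 of 72 allele counts paternal (72.2%, interval 60.4% to 82.1%). Ndufb4 was at only 2.12 CPM in the WT 2-cell pool, and 3 WT libraries had 10 allele counts (68.8% to 100%). Cox4i2 (65.4%), Ndufa5 (62.0%), Atp5h (55.6%), Ndufa2 (55.2%) and Cox4i1 (54.7%) were among the others above an equal share. Cox4i1 lay between 45.0% and 66.7% in single WT libraries, and its KO share was 31.2%. Ndufs8 lay between 36.8% and 56.0% in WT libraries (47.4% pooled) and had 34.1% in KO. In both, paternal counts were thus a smaller part of the counts assigned to a parent in KO. For Cox4i1, assigned counts were only 10.2% of its counts in WT and 9.6% in KO.

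Low paternal shares were found beside different stage ratios. Ndufa10 (3.08%) and Sdha (3.84%, interval 2.45% to 5.71%) were at 327 and 159 CPM in the egg and lower at the 2-cell stage. Cox6b2 was at 131 CPM in the egg and 267 at the 2-cell stage, and 19 of its 2040 WT allele counts were paternal (0.931%). Atp5g1 was different: its level was 6.26 log2 units above the egg, but only 30 of 1713 WT allele counts were paternal (1.75%, interval 1.18% to 2.49%), with single libraries between 0 and 3.11%. In KO its share was 3.73% (24 of 644, interval 2.40% to 5.49%). Assigned counts were 18.05% of the Atp5g1 counts in WT, and whether reads of a copy elsewhere in the genome enter them was not tested.

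Male embryos carry no paternal X chromosome. The 3 X-linked members measured, Ndufa1, Ndufb11 and Cox7b, had a median WT share of 12.7% and KO share of 0.214%. Single WT libraries of Cox7b ran from 0 (also the median) to 49.3%. Without the X-linked members the medians were 33.5% over 66 WT and 9.67% over 62 KO members.

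In the other 7 members the paternal share was higher in KO. Ndufs6 had 31.8% in WT (interval 25.1% to 39.2%) and 67.8% in KO (59.6% to 75.3%), and Ndufv3 41.5% (37.6% to 45.4%) and 57.9% (53.5% to 62.2%). These intervals cover counting error only, and single libraries with 10 allele counts overlapped between genotypes for both genes. Ndufs6 ran from 0 to 70% in WT and from 20% to 90.9% in the 4 KO libraries with enough counts. Ndufv3 ran from 25.4% to 59.0% in WT and from 26.3% to 100% in KO. Ndufc1, Atp5j, Atp5o, Atp5g1 and Ndufb5 also had the higher pooled share in KO, with overlapping intervals. For Ndufs6 the total level was 11.8 CPM in WT and 6.17 in KO, so a larger paternal share stood beside a lower total.

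Expressed as level, the members' paternal counts summed to 360 CPM of total counts in WT and 66.9 in KO, a 5.38-fold difference, and their maternal counts to 945 and 852 CPM, a 1.11-fold difference. For all genes the paternal sum was 4.89-fold lower in KO, and the maternal sum was 316388 CPM in WT and 384339 in KO. Among the 65 members the median log2 ratio of KO over WT was −2.85 for paternal counts (all genes −2.33) and −0.73 for maternal counts (all genes −0.03). The paternal median leaves out Ndufa1 and Cox6a2, which had no paternal count in KO and so no ratio. By complex the paternal sums were 15.2-fold lower in KO for complex IV, 9.03-fold for complex III, 4.62-fold for complex I, 4.61-fold for complex II and 4.29-fold for complex V. Maternal sums were 2.52-fold lower in KO for complex III, 1.47-fold for complex I and 1.42-fold for complex IV, whereas those of complex II were 36.8 CPM in WT and 95.5 in KO and those of complex V 269 and 325. All these levels are relative to total gene counts. With ERCC counts as the library size, every log2 ratio of KO over WT moves up by 0.82. The sign of maternal differences smaller than this shift, among them those of complexes I and IV, therefore depended on the scale. Sdha counts with an assigned parent were nearly all maternal in both genotypes, with a paternal share of 3.84% in WT and 0.601% in KO.

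The epiblast samples gave the only comparison with samples that could be tested. IVC samples had 10377163 and 10241401 counts and E6.5 samples 11826853 and 24047088, and p-values measure the spread between these samples, which may be technical. In bulk tissue, fewer cells of a type and less RNA per cell cannot be told apart. By edgeR's quasi-likelihood test with Benjamini-Hochberg adjustment over 11565 genes, 68 of 80 tested members were higher in IVC and 3 lower, beside 12% and 23.5% of all genes tested. The members' median log2 fold change was 4.48, where that of all genes was −0.85. The summed level was 45857 and 45673 CPM in the IVC samples and 4810 and 5273 in the E6.5 samples. Each group comes from a table of its own, so table and group cannot be told apart, and genes with any count numbered 8380 and 8990 in IVC and 13101 and 13698 in E6.5.

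**Figure D5:**
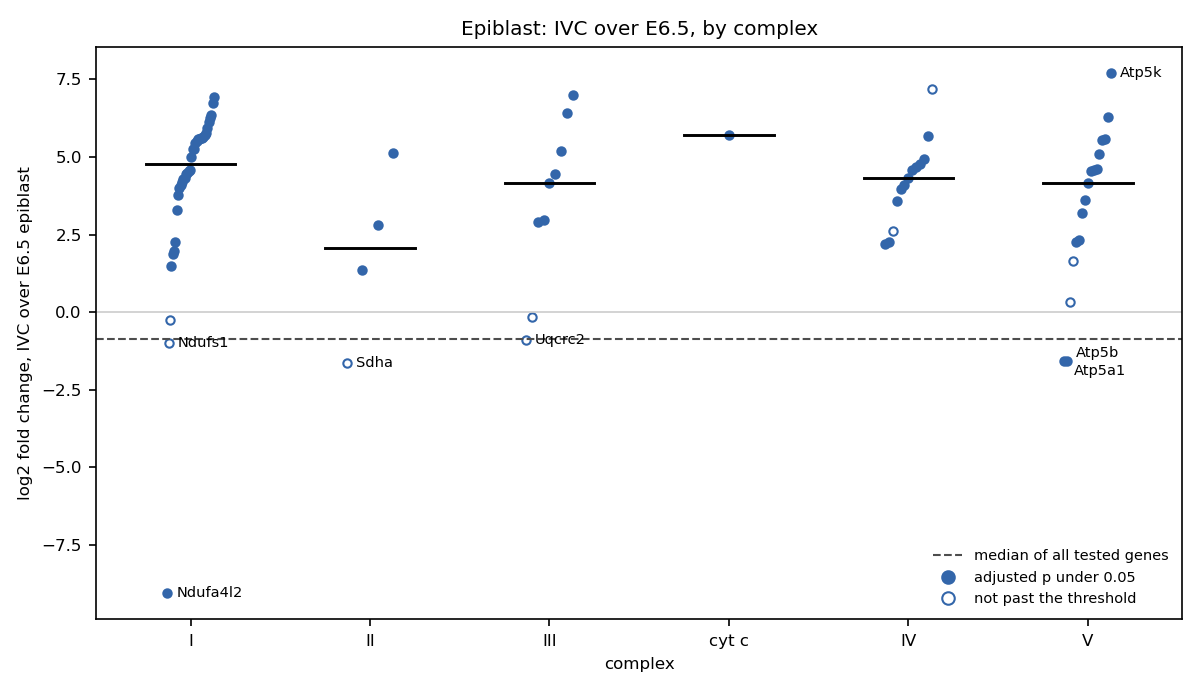
Log2 fold change, IVC over E6.5 epiblast (vertical axis), of the 80 tested members by complex (horizontal axis), with filled points past the adjusted p threshold of 0.05, open points not past it, a solid bar at each complex's median and a dashed line at the median of all tested genes (−0.85). All complexes have medians above 0, and Atp5a1, Atp5b and Ndufa4l2 are the filled points below 0.

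The increase ran through all complexes: 33 of 36 tested members rose in complex I (median 4.78), 3 of 4 in complex II (2.08), 7 of 9 in complex III (4.15), 11 of 13 in complex IV (4.31), 13 of 17 in complex V (4.15), and Cycs (5.71). Atp5k, subunit e of ATP synthase, was at 514 and 553 CPM in IVC and at 3.55 and 2.62 in E6.5, a log2 fold change of 7.71 ± 0.327 (SE, edgeR adjusted p = 0.00379). Uqcr11, a small subunit of complex III, was at 1115 and 1098 against 9.81 and 11.1 CPM (7.0 ± 0.171). Ndufc1 (6.94), Ndufa1 (6.75) and Uqcr10 (6.41) were the next highest among members past the threshold.

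The members that fell were the alpha and beta subunits of ATP synthase and an isoform. Atp5a1 was at 234 and 190 CPM in IVC and 734 and 798 in E6.5, a log2 fold change of −1.58 ± 0.187 (SE, edgeR adjusted p = 0.0189). Atp5b was at 239 and 396 against 1163 and 1110 CPM (−1.57 ± 0.288, edgeR adjusted p = 0.0398). Ndufa4l2, a hypoxia-induced relative of Ndufa4, had no count in IVC and 4.23 and 5.70 CPM in E6.5, at least 35.8-fold lower against a floor of 3 counts (edgeR adjusted p = 0.0398). Without E6.5 sample 2 none of these 3 passed and 0 members fell, and without E6.5 sample 1 only Atp5a1 fell. These fits leave E6.5 with 1 sample, assumed to vary as the IVC samples do. Ndufa4l2 did not pass under DESeq2 or with no filter on low counts either. Core or catalytic subunits of the other complexes were on both sides of the threshold. Ndufv2 (log2 fold change 4.18), Sdhb (5.12) and Uqcrc1 (2.92) rose, among others. Several did not pass: Sdha was at 7.23 and 79.6 CPM in IVC and 167 and 155 in E6.5 (−1.63, edgeR adjusted p = 0.382), and the log2 fold changes were −0.99 for Ndufs1, −0.91 for Uqcrc2 and −0.14 for Cyc1. The members tested but not past the threshold numbered 9, and 6 members had no count in any of the 4 samples: Ndufs5, Cox4i2, Cox6a2, Cox7b2, Cox8b and Cox8c.

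Other lists went the same way only in part. Cytosolic ribosomal protein genes had 69 of 82 higher and 0 lower (median 2.44) and mitochondrial ones 49 of 77 higher and 0 lower (3.20). Assembly factors had 19 of 47 higher and 3 lower (1.78). The regulators had 0 of 12 higher and 2 lower (−1.83), and the tricarboxylic acid cycle 5 of 18 higher and 2 lower (−0.24). Among the latter was Dlst, the succinyl-transferring subunit of 2-oxoglutarate dehydrogenase, at 0.0964 and 0.195 CPM in IVC and 134 and 131 in E6.5 (log2 fold change −9.48, edgeR adjusted p = 0.00722). Epiblast markers summed to 1765 and 2107 CPM in IVC and to 5158 and 6021 in E6.5, and none of the 10 was at 0. Trophoblast markers summed to 6912 and 6875 CPM in IVC and to 275 and 273 in E6.5, with 3 of 9 tested genes higher, 1 lower and a median log2 fold change of −1.13, opposite in sign to the sums. Cdx2, Ascl2 and Hand1 were at 0 in both IVC samples and Prl2c2 in all 4. Visceral endoderm markers summed to 596 and 641 against 199 and 228 CPM, and mesoderm markers to 62.5 and 37.6 against 270 and 225 CPM. The part of these other cell types in the members' fold changes was not tested.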

How the data were processed

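Single oocytes, 2-cell samples and bulk epiblast were measured by sequencing of polyadenylated RNA. The authors deposited raw counts for each gene symbol, and the maternal and paternal allele tables hold deposited counts too. The submitters' processing notes name build mm9, featureCounts 2.0.1, HTSeq 0.10.0, STAR 2.6.0a, MethylDackel 0.5.0, SAMtools 0.1.18, cutadapt 1.15, Trim Galore 0.6.6 and Bismark 0.23.0, without saying which made these tables. Strand use and the treatment of shared reads are not given in the sources used here. In the allele tables, 5 of 1387 member values above 0 exceeded the total count.

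ERCC rows were left out of library totals. CPM is a count scaled to 1000000 gene counts of its library, computed here. Pooled CPM ratios used exact conditional Poisson intervals at 95% and paternal shares used exact Clopper-Pearson intervals; both cover counting error only, since reads without molecular identifiers are not independent molecules. A member was measured at 10 CPM in either pool and called at 2-fold. A paternal share needed 50 allele counts, or 10 in a single library. Epiblast tables were joined on symbol and fitted with edgeR 4.0.16 (TMM, filterByExpr, glmQLFit, glmQLFTest, Benjamini-Hochberg at 0.05, two-sided). DESeq2 1.42.0 and limma 3.58.1 ran in R 4.3.3. Other steps used Python 3.11.15 with pandas 2.3.3, numpy 2.4.6 and scipy 1.17.1. Procedures were tested on simulated data. None of 326 pairs of libraries within a group was identical.

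Samples were grouped by their labels, and ERCC and Rn45s set the oocyte sets. The members, lists, library sets and comparisons were chosen with earlier results of these data known. Named genes were the 2 highest and 2 lowest members per complex, calls in the rarer direction, members called in both oocyte sets and isoform pairs, with 5 at each end in epiblast; other genes were named after their values were seen. Scaling by ERCC counts and leaving out 2 libraries were chosen after seeing the data. The alternatives tried were other scalings, filters, pooling rules, fold limits, library sets and leaving out each library. Samples of other assays were not analysed here, and some members are counted but not described singly. The same-number epiblast samples had a correlation of deviations of 0.00606, so the fit has no block.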

Additional observations from a re-analysis of the deposited data

Results flagged for a closer look

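Sums over the members, per complex and library group, and the paternal share of the members were checked for a single library far from the rest, 37 checks in all. Chance alone marks about 1 in 20 such groups, and 5 were marked. In WT 2-cell embryos, library 8 had 117.92 CPM of complex II, where the other 7 had 56.7 to 79.1. In KO 2-cell embryos, library 4 had 4607.56 CPM summed over all members (the others 2660 to 3415), 298.855 CPM of complex II (the others 93.2 to 164) and 1700.31 CPM of complex V (the others 816 to 1127). In KO spike-in oocytes, library 17 had 3520.89 CPM over all members, where the others had 4285 to 4701. For complex II, WT library 8 lay within the range of the KO libraries. WT library 8 and KO library 4 also had the highest summed oocyte markers of their groups, 9901 and 17876 CPM, and the part of these in the sums was not tested.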

How the results depend on the processing

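Counting depth limits low members most, and no ratio from single cells has a test. Medians are log2 ratios of members, and "higher" and "lower" count members past 2-fold. In spike-in oocytes, TMM, DESeq2 size factors, a 50 CPM filter and mean CPM each left 1 higher, no filter gave 10 higher and 5 lower, all libraries gave 0 higher and a median of −0.10, and ERCC scaling 9 and 0.68. In low-rRNA oocytes, no filter gave 15 higher and 3 lower, 50 CPM gave 0 and −0.13, and all libraries 0 and −0.10. For the WT stage ratio, TMM gave a median of 0.37 and 14 lower, DESeq2 10 lower, 50 CPM 13 higher, all libraries 3 lower, and ERCC scaling 0.0837 and 20 lower, with Cox6b2 at −0.0946. For the KO stage ratio, no filter gave 0.30 and 29 higher, 50 CPM −0.77, 0 higher and 10 lower, all libraries 0.33 and 4 lower, and ERCC scaling −1.14. For KO against WT 2-cell embryos, TMM gave −0.70 and 4 higher, DESeq2 −0.78 and 4 higher, 50 CPM 12 lower, median CPM −1.46, a 1.5-fold limit 5 higher, ERCC scaling −0.27, 6 higher and 24 lower, and leaving out WT library 8 and KO library 4 −1.55. TMM and DESeq2 factors moved the median of all genes by −0.66 and −0.33 for the WT stage ratio and by 0.36 and 0.27 for KO against WT 2-cell embryos. The cause was not tested, beyond the fewer members tested at 50 CPM.

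With each library left out in turn, the ranges were as follows. Spike-in oocytes had medians of 0.11 to 0.23, 1 to 3 higher and 0 lower. Low-rRNA oocytes had −0.02 to 0.22, 2 to 5 higher and 0 lower. The WT stage ratio had 1.08 to 1.49, 35 to 42 higher and 6 to 9 lower, and the KO stage ratio −0.64 to −0.25, 7 to 10 higher and 16 to 19 lower. KO against WT 2-cell embryos had −1.33 to −0.995, 1 to 2 higher and 35 to 46 lower. Median paternal shares were 29.2% to 33.3% in WT and 7.30% to 11.8% in KO. Epiblast medians were 4.28 to 4.6, with 55 to 71 members higher and 0 to 6 lower.

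In the epiblast, with the replicate number as a block, 62 members were higher and 2 lower, and Ndufa4l2 no longer passed. The labels give no pairing of the numbers. DESeq2 gave 69 higher and 3 lower. Of the single members followed, the call of 3 of 16 changed under some alternative for KO against WT 2-cell embryos, 4 of 20 for the WT stage ratio, 10 of 20 for the KO stage ratio, 3 of 8 in epiblast, 3 of 3 in low-rRNA and 2 of 2 in spike-in oocytes.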

Other observations

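The 3 oocyte libraries that belonged to neither set had under 0.01% ERCC and 1.78% to 2.38% Rn45s. Their summed member levels were 3397 CPM in WT library 14 and 2151 and 2402 CPM in KO libraries 18 and 19. Nlrp14 was at 3307 CPM in the former and at 73.2 and 65.8 CPM in the latter.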
